A study of Mus musculus with 9 samples.

Results

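Granulocyte colony-stimulating factor (G-CSF, encoded by Csf3), the chemokines that bind the receptor CXCR2, and prokineticin 2 (Prok2, also called Bv8) were followed in 4T1 primary tumors through 10 genes of the 18755 in the deposited counts. The genes are the cytokines Csf3 and Csf2, the receptor Csf3r, the chemokines Cxcl1, Cxcl2, Cxcl3, Cxcl5 and Ppbp, their receptor Cxcr2, and Prok2. They were found by Entrez gene identifier, all 10 were present, and all 10 passed the filter on low counts that left 13966 genes for testing. The genes were chosen by their measured counts in BI 853520-treated against vehicle-treated tumors, with that difference already known, so their levels and fold changes are a description and carry no p value.

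4T1 is a single metastatic line derived from a mammary tumor of the mouse, and 1000000 of its cells were injected into the mammary fat pad of female BALB/c mice 6 to 10 weeks of age. From day 15 after injection, mice received for 5 days either 50 mg/kg BI 853520, an inhibitor of focal adhesion kinase (FAK), or the 0.5% Natrosol vehicle alone. RNA from snap-frozen pieces of 3 vehicle-treated and 6 BI 853520-treated tumors was sequenced, 1 library per tumor. The paper states that tumors were kept for analysis only where their RNA quality was sufficient. All animals carried the same transplanted line and no other allele or agent is named for either group.

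G-CSF is the cytokine that drives the production of neutrophils in the bone marrow and their release into blood, and it signals through the receptor encoded by Csf3r on cells of this lineage. The ligands Cxcl1, Cxcl2, Cxcl3, Cxcl5 and Ppbp attract neutrophils by way of CXCR2, which neutrophils carry at their surface. Prok2 is a small secreted protein that myeloid cells make in response to G-CSF and that acts on vessels and on myeloid cells. 4T1 tumors are known for secreting G-CSF and for a strong rise of neutrophils in the host.

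Total counts ranged from 21727879 to 33850245 in the controls given vehicle and from 16931607 to 22349873 in BI 853520-treated tumors, so that 1 count equalled 0.0295 to 0.0591 counts per 1000000 counts (CPM). Expression is given as CPM after normalization by the trimmed mean of M values (TMM), with the standard deviation (SD) over tumors. Keratins of simple epithelium were abundant, with mean levels of 478 CPM for Krt8 and 578 CPM for Krt18 in vehicle-treated tumors, whereas Epcam had 2.13 CPM and the basal keratins Krt5 and Krt14 had 0.672 and 0.924 CPM. The labels do not say that each tumor came from its own mouse, and p values therefore measure the spread between these samples.

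The ligand genes lie in a cluster on chromosome 5. On the mm9 assembly it runs over 146.6 kb in the order Cxcl5 (chr5:91188325-91190651), Ppbp (chr5:91197544-91199086), Cxcl3 (chr5:91215129-91217112), Cxcl1 (chr5:91320267-91322141) and Cxcl2 (chr5:91332897-91334935), all on the plus strand, with Pf4 and Cxcl15 in between. The other genes are apart from it and from each other, Csf3 on chr11:98562577-98564943, Csf2 on chr11:54060773-54063169, Csf3r on chr4:125701794-125722219, Cxcr2 on chr1:74200563-74207812 and Prok2 on chr6:99661293-99676386. The exons of Csf2 overlap those of Gm12223 on the other strand, and the other 9 genes share no exon position with another gene of the annotation. Cxcl1, Cxcl2 and Cxcl3 are close paralogs, and reads that aligned to more than 1 place were not counted.

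Promoter sequences were in the RefSeq table for 8 of the 10 genes. They were not there for Csf3 and Cxcl5. The 250 bases upstream of the start are shown for Cxcl1, Cxcl2, Cxcl3 and Ppbp as neighbors in the cluster, and for Prok2 as the gene with the most negative fold change. Capitals mark GGGAATTTCCC, which holds a form of the NF-kappaB element, and ATAAAAGG, a stretch like a TATA box, in the first 3. They also mark TATAAA in Ppbp and TGANTCA in Prok2. TGANTCA takes in the AP-1 element but allows any middle base, so it is wider than that element. Sequences are on GRCm38.p6, a later assembly than that of the counts.
Cxcl1 (chr5:90890995-90891244, plus strand): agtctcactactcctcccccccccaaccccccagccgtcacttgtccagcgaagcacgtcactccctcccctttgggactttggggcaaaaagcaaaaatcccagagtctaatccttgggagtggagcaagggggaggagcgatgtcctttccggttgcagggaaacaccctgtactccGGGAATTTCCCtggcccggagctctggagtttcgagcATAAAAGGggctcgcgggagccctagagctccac
Cxcl2 (chr5:90903649-90903898, plus strand): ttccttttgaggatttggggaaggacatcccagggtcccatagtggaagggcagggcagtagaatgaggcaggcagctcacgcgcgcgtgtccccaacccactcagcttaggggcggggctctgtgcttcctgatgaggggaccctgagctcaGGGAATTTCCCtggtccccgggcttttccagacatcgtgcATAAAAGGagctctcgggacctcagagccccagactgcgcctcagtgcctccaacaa
Cxcl3 (chr5:90785851-90786100, plus strand): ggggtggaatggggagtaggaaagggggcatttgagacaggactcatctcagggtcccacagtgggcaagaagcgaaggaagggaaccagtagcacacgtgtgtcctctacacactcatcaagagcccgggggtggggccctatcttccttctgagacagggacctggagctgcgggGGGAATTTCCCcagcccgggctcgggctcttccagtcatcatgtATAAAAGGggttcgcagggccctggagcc
Ppbp (chr5:90768268-90768517, plus strand): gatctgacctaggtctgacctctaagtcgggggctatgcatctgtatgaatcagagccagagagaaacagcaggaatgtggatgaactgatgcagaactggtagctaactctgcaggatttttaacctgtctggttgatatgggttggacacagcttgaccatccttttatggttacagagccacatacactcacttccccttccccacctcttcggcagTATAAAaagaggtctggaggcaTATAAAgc
Prok2 (chr6:99726393-99726642, minus strand): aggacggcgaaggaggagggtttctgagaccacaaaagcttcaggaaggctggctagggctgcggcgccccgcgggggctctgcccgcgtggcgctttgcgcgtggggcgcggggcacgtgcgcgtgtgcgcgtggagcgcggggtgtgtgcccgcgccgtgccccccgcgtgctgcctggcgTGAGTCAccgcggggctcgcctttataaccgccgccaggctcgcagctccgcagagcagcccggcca

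GGGAATTTCCC was the longest run of letters that the windows of Cxcl1, Cxcl2 and Cxcl3 shared, at bases -71 to -61, -97 to -87 and -73 to -63 from the start. Over all 32851 promoter windows of the same length, 0.0426% held these letters on either strand, 14 windows in all. ATAAAAGG, the next longest shared run, followed after 26 bases in Cxcl1, 29 bases in Cxcl2 and 33 bases in Cxcl3, and 1.0% of all windows held it on the strand of the gene. Both runs were thus chosen from these windows themselves, and their share elsewhere is no test. TGANTCA was found in Prok2 (TGAGTCA at bases -67 to -61) and in Ppbp (TGAATCA at bases -204 to -198), and in 6.75% of all windows on either strand. TATAAA was found in Cxcl3, where it overlaps ATAAAAGG, and in Ppbp, and in 7.59% of all windows on the strand of the gene. The C/EBP element TTGCNNAA was found in Csf2 and in 9.56% of all windows on either strand. Such matches describe letters in these windows and do not show that a factor bound there.

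Most of these genes had lower levels in BI 853520-treated tumors, Csf3, Cxcl5, Cxcl1, Prok2 and Cxcr2 without any overlap between the groups. The log2 fold change of BI 853520 against vehicle was below 0 in 9 of the 10 genes, with a median of -0.89. Over all 13966 genes the median was -0.0037. With edgeR's quasi-likelihood test and a limit of 0.05 on p after Benjamini-Hochberg adjustment, 6 of the 10 genes were lower and 0 were higher, where 14.1% of all genes tested were lower and 14.6% higher (28.7% in either direction). With the cutoffs of the study, an unadjusted p of at most 0.05 and a 1.5-fold difference, 6 of the 10 were lower and 0 higher, beside 3.57% of all genes lower and 9.57% higher. In 5 of the 10 every treated tumor lay below every vehicle-treated tumor, as did 14.0% of all genes tested, while 14.1% lay wholly above. Because the genes were chosen with this contrast known, nothing is read from these counts. The tumors are bulk samples, so that fewer cells of a type and less RNA per cell cannot be told apart.

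**Figure D1:**
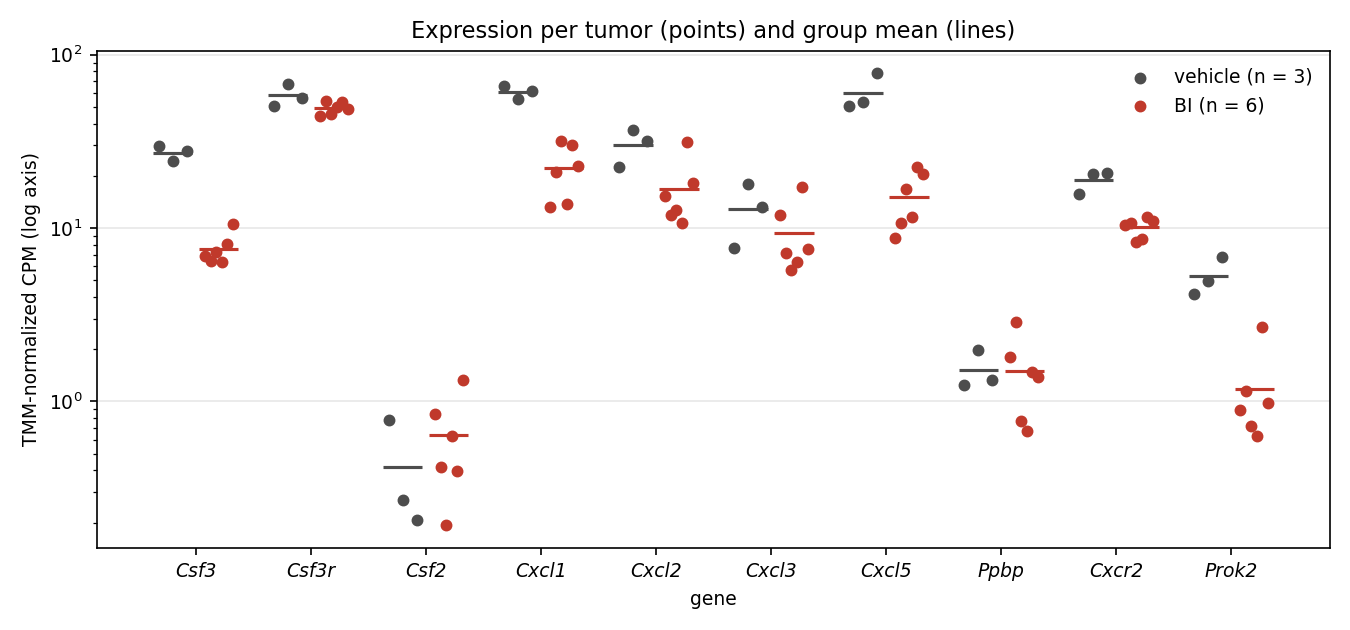
Expression of the 10 genes in each tumor as TMM-normalized CPM on a log axis, with vehicle-treated tumors (n = 3) in gray, BI 853520-treated tumors (n = 6) in red and the group means as lines. The groups are apart for Csf3, Cxcl1, Cxcl5, Cxcr2 and Prok2, and 1 treated tumor lies above the rest for Prok2, at 2.68 CPM.

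Csf3, the gene of G-CSF itself, was at 29.9, 24.2 and 27.6 CPM in vehicle replicates 1 to 3, and in treated tumors its lowest, median and highest values were 6.34, 7.09 and 10.5 CPM. The highest treated tumor was thus at less than the lowest vehicle-treated tumor, and all treated tumors but BI 853520 replicate 6 lay between 6.34 and 8.10 CPM. The means were 27.2 ± 2.86 CPM (SD, n = 3) and 7.61 ± 1.58 CPM (SD, n = 6), a log2 fold change of -1.85 (standard error 0.140) or a level 3.59-fold lower with BI 853520.

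The receptor gene Csf3r moved far less than its ligand. It was at 50.5, 67.7 and 56.5 CPM in vehicle-treated tumors and at 44.1, 49.2 and 54.3 CPM (lowest, median and highest) in treated tumors, with 4 of 6 treated tumors below every vehicle-treated tumor. Its log2 fold change was -0.24 (standard error 0.0946). Of the 10 genes Csf3r had the smallest spread among treated tumors, with an SD of 8.38% of the mean.

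Csf2, which encodes GM-CSF, a related factor for granulocytes and macrophages, was close to the limit of detection. It had 17, 6 and 7 counts in the vehicle-treated tumors and between 4 and 23 counts in the treated tumors. Levels were 0.418 ± 0.314 CPM (SD, n = 3) and 0.637 ± 0.408 CPM (SD, n = 6). The groups overlapped, and the log2 fold change of 0.65 had a standard error of 0.584, so that no difference could be told from the spread between tumors. It ranged from 0.27 without vehicle replicate 3 to 1.41 without vehicle replicate 1.

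Among the CXCR2 ligands, Cxcl5 and Cxcl1 had the most negative fold changes. Cxcl5, a chemokine of epithelial cells, was at 50.3, 53.1 and 78.0 CPM in vehicle-treated tumors and at 8.74, 14.2 and 22.6 CPM (lowest, median and highest) in treated tumors, without overlap. The log2 fold change was -2.01 (standard error 0.254), a level 4.02-fold lower. Cxcl1, known as KC in mice and made by many stromal and tumor cells, was at 66.2, 55.4 and 61.5 CPM against 13.2, 21.8 and 31.9 CPM. Here too all 6 treated tumors were below the lowest vehicle-treated tumor, and the log2 fold change was -1.47 (standard error 0.234), a level 2.77-fold lower. The treated tumors differed more among themselves than the vehicle-treated tumors, with an SD of 35.5% of the mean against 8.92% for Cxcl1.

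Cxcl2 and Cxcl3, both of which macrophages and neutrophils make on activation, showed overlapping groups. Cxcl2 was at 22.5, 36.7 and 31.8 CPM in vehicle-treated tumors and at 10.7, 14.0 and 31.1 CPM (lowest, median and highest) in treated tumors, where 5 of 6 lay below every vehicle-treated tumor. Its log2 fold change was -0.87 (standard error 0.282), and its call at an adjusted p of at most 0.05 was lost with DESeq2 and on leaving out vehicle replicate 2 or 3 or BI 853520 replicate 1, 2, 3 or 4. Cxcl3 was at 7.65, 18.0 and 13.1 CPM against 5.74, 7.36 and 17.3 CPM, with a log2 fold change of -0.47 (standard error 0.339). The tumor of BI 853520 replicate 5 was the highest treated tumor for both genes, with 31.1 CPM of Cxcl2 and 17.3 CPM of Cxcl3, and for Cxcl3 replicate 1 (11.9 CPM) also lay within the range of the controls. Without BI 853520 replicate 5 the log2 fold changes of Cxcl2 and Cxcl3 were -1.13 and -0.73. Without vehicle replicate 2 they were -0.71 and -0.17.

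Ppbp, the precursor of a platelet chemokine, had nearly equal means in both groups. Its levels were 1.24, 1.97 and 1.33 CPM in vehicle-treated tumors and 0.674, 1.44 and 2.87 CPM (lowest, median and highest) in treated tumors, the range of the treated tumors enclosing that of the controls. The log2 fold change was -0.01 (standard error 0.400). Of 14 platelet markers 7 were tested. Gp6, the collagen receptor of platelets, was at 3 counts or fewer in all tumors, and Gp9 and Gp5 had mean levels of 0.179 and 0.253 CPM in vehicle-treated tumors. Pf4, the platelet chemokine gene beside Ppbp, was far higher than these, with 41.1 ± 11.1 CPM (SD, n = 3) in vehicle-treated and 46.9 ± 9.06 CPM (SD, n = 6) in treated tumors (edgeR, adjusted p = 0.443). Of the 7 markers 1 was called higher, a share of 14.3% beside 14.6% of all genes, and 0 lower. The gene called was Gp1ba, a platelet adhesion receptor, with means of 0.0153 and 0.557 CPM (edgeR, adjusted p = 0.00698), named after its values were seen. Without BI 853520 replicate 2 the lower markers numbered 1.

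Cxcr2, the receptor of the 5 ligands, was at 15.6, 20.4 and 20.9 CPM in vehicle-treated tumors. In treated tumors the lowest, median and highest values were 8.35, 10.6 and 11.6 CPM, again without overlap. The log2 fold change was -0.91 (standard error 0.126), a level 1.88-fold lower, and so more negative than that of Csf3r, the other receptor of the list.

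Prok2 had the most negative log2 fold change of the 10 genes, -2.19 (standard error 0.357), a level 4.57-fold lower. It was at 4.17, 4.92 and 6.77 CPM in vehicle-treated tumors and at 0.629, 0.941 and 2.68 CPM (lowest, median and highest) in treated tumors, which corresponds to 91 to 230 counts and 14 to 47 counts. The highest treated value was again that of BI 853520 replicate 5, and without that tumor the log2 fold change was -2.59. Even so, the treated tumor with the most Prok2 was below every vehicle-treated tumor.

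**Figure D2:**
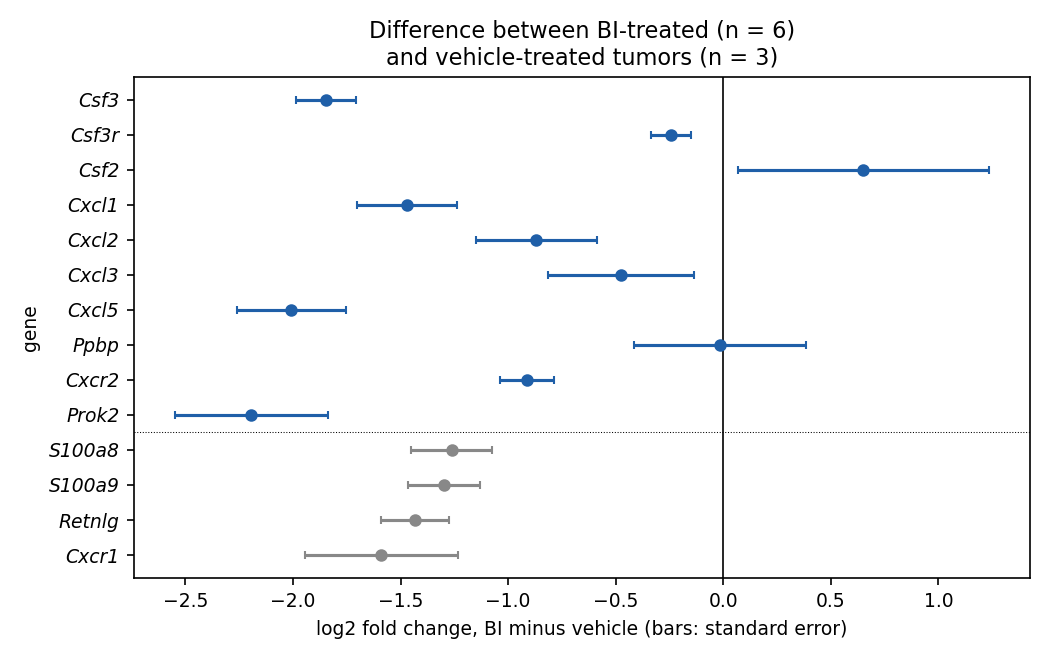
Log2 fold change of BI 853520 (n = 6) against vehicle (n = 3) with its standard error for the 10 genes in blue and for 4 genes of neutrophils in gray, which are not among the 10 and were picked after their values were seen. Prok2, Cxcl5 and Csf3 lie between -2.19 and -1.85, Ppbp lies at -0.01, and S100a8, S100a9, Retnlg and Cxcr1 lie between -1.59 and -1.26, while several neutrophil markers that are not drawn lie nearer to 0 or above it, such as Elane at -0.04 and Padi4 at 0.48.

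To set the ligands beside each other, levels were divided by the gene length. The 5 CXCR2 ligands together amounted to 129.5, 143.8 and 155.4 CPM per kb with vehicle and to 38.3 to 92.4 CPM per kb with BI 853520, with means of 143 ± 12.9 (SD, n = 3) and 58.4 ± 19.0 (SD, n = 6). Cxcl1 made up the largest part of this sum in both groups on average, 45.4% ± 7.37 (SD, n = 3) in vehicle-treated and 40.0% ± 8.62 (SD, n = 6) in treated tumors. The share of Cxcl5 ran from 22.3% to 30.3% in the controls and from 11.3% to 19.9% with BI 853520. That of Cxcl3 ran from 5.80% to 12.3% and from 9.12% to 25.1%. That of Cxcl2 ran from 16.0% to 23.6% and from 19.0% to 31.1%. The ranges of the groups overlapped for every ligand but Cxcl5. Ppbp never exceeded 5.39%. These shares follow from the same contrast and are given without a test.

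**Figure D3:**
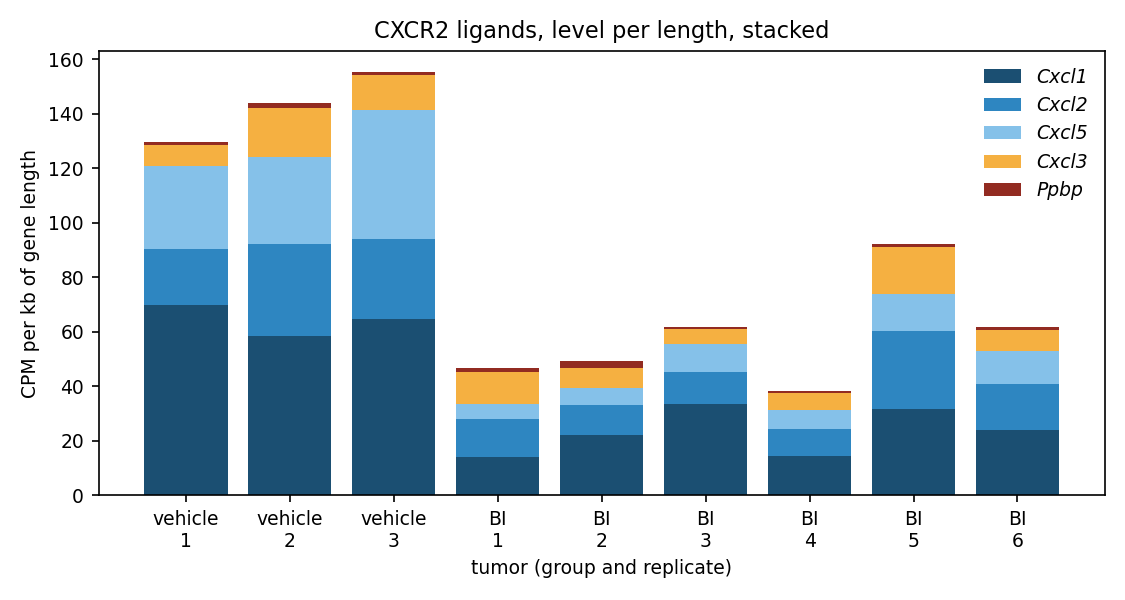
Levels of the 5 CXCR2 ligands per tumor as stacked bars in CPM per kb of gene length, starting at 0. The sums run from 129.5 to 155.4 with vehicle and from 38.3 to 92.4 with BI 853520, where replicate 5 is highest.

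Per length, the order of mean log2 levels in treated tumors was Cxcl1, Cxcl2, Csf3r, Cxcl5, Cxcl3, Csf3, Cxcr2, Ppbp, Prok2 and Csf2. Mean levels ran from 23.3 ± 8.26 CPM per kb for Cxcl1 to 0.617 ± 0.395 CPM per kb for Csf2 (SD, n = 6). In vehicle-treated tumors the order was Cxcl1, Cxcl5, Cxcl2, Csf3, Csf3r, Cxcl3, Cxcr2, Prok2, Ppbp and Csf2, from 64.3 ± 5.73 to 0.404 ± 0.304 CPM per kb (SD, n = 3). The 9 pairs of neighbors in the order of the treated tumors were compared within tumors by an exact sign-flip permutation test (two-sided, smallest possible p 0.03125). Csf3 was above Cxcr2 and Cxcr2 above Ppbp in 6 of 6 tumors, by 0.74 and 1.33 on the log2 scale, each with the smallest p. The SDs of these differences over tumors were 0.25 and 0.59. No pair passed after Benjamini-Hochberg adjustment over the 9 pairs (smallest adjusted p 0.1125), which with 6 tumors does not show that neighbors had the same level. By itself no pair could have passed this adjustment, given the smallest possible p, and the order was set from the same tumors. The differences of Cxcl2 over Csf3r (0.25), Csf3r over Cxcl5 (0.49) and Prok2 over Csf2 (0.28) were smaller than their SDs of 0.55, 0.54 and 1.12. Cxcl5 and Cxcl3 were closest, 0.02 apart on the log2 scale (SD 0.73) with 3 of 6 tumors in either order.

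Markers of neutrophils, the cells that carry both receptors, were lower in part. Of 22 genes tested, 9 fell and 1 rose past the same limit in edgeR's test, beside 14.1% and 14.6% of all genes, with a median log2 fold change of -0.52. S100a9, the most abundant of them per length and a subunit of calprotectin, fell from 384 ± 72.6 CPM (SD, n = 3) to 156 ± 34.8 CPM (SD, n = 6). Its log2 fold change was -1.30 with a standard error of 0.169 (edgeR, adjusted p = 0.000235). Its partner S100a8 and the neutrophil gene Retnlg had log2 fold changes of -1.26 and -1.43 (adjusted p = 0.000582 and 8.54e-05, edgeR). These 2 genes and those in the next sentence are named after their values had been seen. Of the granule protein genes on the list, Lcn2 fell, with a log2 fold change of -1.19 (adjusted p = 0.0277, edgeR), whereas Elane (-0.04), Mpo (-0.54), Camp (-0.30), Ngp (-0.66), Ltf (0.30), Prtn3 (0.10) and Mmp8 (0.21) did not pass. None of the 22 markers was at 3 counts or fewer in all tumors. The gene that rose, Padi4, did not pass without vehicle replicate 1 or 3, and without BI 853520 replicate 2 the higher genes numbered 2.

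The mean log2 CPM of the neutrophil list ran from 3.58 to 4.04 in the controls and from 2.95 to 3.52 with BI 853520, without overlap. The summed level was between 1631 and 2029 CPM and between 1528 and 1990 CPM, but most of that sum was Padi4, the gene that rose, with mean levels of 908 and 1269 CPM. Without Padi4, a step added after seeing the data, the sums were between 742 and 975 CPM and between 394 and 559 CPM. BI 853520 replicate 5, highest of the treated tumors in Cxcl2, Cxcl3, Cxcl5, Cxcr2 and Prok2, was also the highest of them in S100a8 (81.0 CPM), S100a9 (207 CPM) and Retnlg (8.33 CPM), though not in the mean over the list, where it had 3.35 and replicate 6 had 3.52. The part that the number of neutrophils has in the levels of Cxcr2, Csf3r and Prok2 was not tested.

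A marker score was the mean log2 CPM of a marker list, in which each gene tested weighs the same. In the score of tumor epithelium, Krt5 and Krt14, at 0.672 and 0.924 CPM with vehicle, thus count as much as the abundant Krt8 and Krt18. Within the 6 treated tumors, 7 relations between these genes and marker scores were examined. None passed a Benjamini-Hochberg adjusted p of 0.05 with the exact permutation test over 720 pairings (two-sided), and none had an unadjusted p of at most 0.05, by Pearson's or Spearman's coefficient. Csf3 against the score of tumor epithelium gave r = 0.86 (p = 0.0833, adjusted p = 0.326, exact permutation test) and rho = 0.31 (p = 0.564, adjusted p = 0.564). Without the tumors farthest from the median, BI 853520 replicates 1 and 6, r was 0.06, so that the relation rested on those tumors. Csf3r against the neutrophil score gave r = 0.77 (p = 0.0931, adjusted p = 0.326, exact permutation test) and rho = 0.60 (p = 0.242, adjusted p = 0.416), and r turned to -0.47 without replicates 1 and 3. For Csf3, Cxcr2 and Prok2 against the neutrophil score r was 0.38, 0.50 and 0.32, for Cxcl5 against tumor epithelium 0.61 and for Ppbp against the platelet score 0.61, with adjusted p between 0.352 and 0.599 (exact permutation test).

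Of the tumor epithelium markers, 13 of 16 were tested and 2 were lower, a share of 15.4% beside 14.1% of all genes, while 0 were higher. The median log2 fold change was 0.11. The 2 were the abundant keratins, Krt18 with a fall of 0.50 and Krt8 with a fall of 0.28 on the log2 scale (adjusted p = 0.00636 and 0.0444, edgeR). Ovol1 was at 3 counts or fewer in all tumors. The lower genes numbered 1 without vehicle replicate 1 or 2 or BI 853520 replicate 3, 4, 5 or 6, and the higher genes 2 without BI 853520 replicate 1. With the cutoffs of the study 2 were higher and 1 lower. The part of the tumor cell content in the levels of Csf3, Cxcl1 and Cxcl5 was not tested.

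Receptors and signaling genes of the colony-stimulating factors and prokineticins went the other way from Csf3 more often than not. Of 31 such genes 29 were tested, with a median log2 fold change of 0.32. Of these 17 were higher (58.6%) and 1 was lower (3.45%), beside 14.6% and 14.1% of all genes tested. Csf1r, the receptor of macrophage colony-stimulating factor, rose from 230 ± 16.5 to 431 ± 39.6 CPM, which is 0.91 on the log2 scale (SE 0.0864, edgeR, adjusted p = 4.0e-05). Csf2rb2, a beta chain of the interleukin 3 receptor, and Cebpa, a transcription factor of the myeloid lineage, rose by log2 fold changes of 0.77 and 0.82 (adjusted p = 9.62e-05 and 0.000217, edgeR). Jak2, the kinase that many of these receptors share, was the gene that fell, from 485 ± 16.5 to 365 ± 25.9 CPM (log2 fold change -0.41, adjusted p = 0.00102, edgeR). Cebpb, the most abundant per length, was at 253 ± 56.8 and 193 ± 28.5 CPM (adjusted p = 0.0575, edgeR). Il3, and Prok1, the paralog of Prok2, were at 3 counts or fewer in all tumors. Without vehicle replicate 3 the higher genes numbered 11 in place of 17 and the lower genes 2, as they did without BI 853520 replicate 5.

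**Figure D4:**
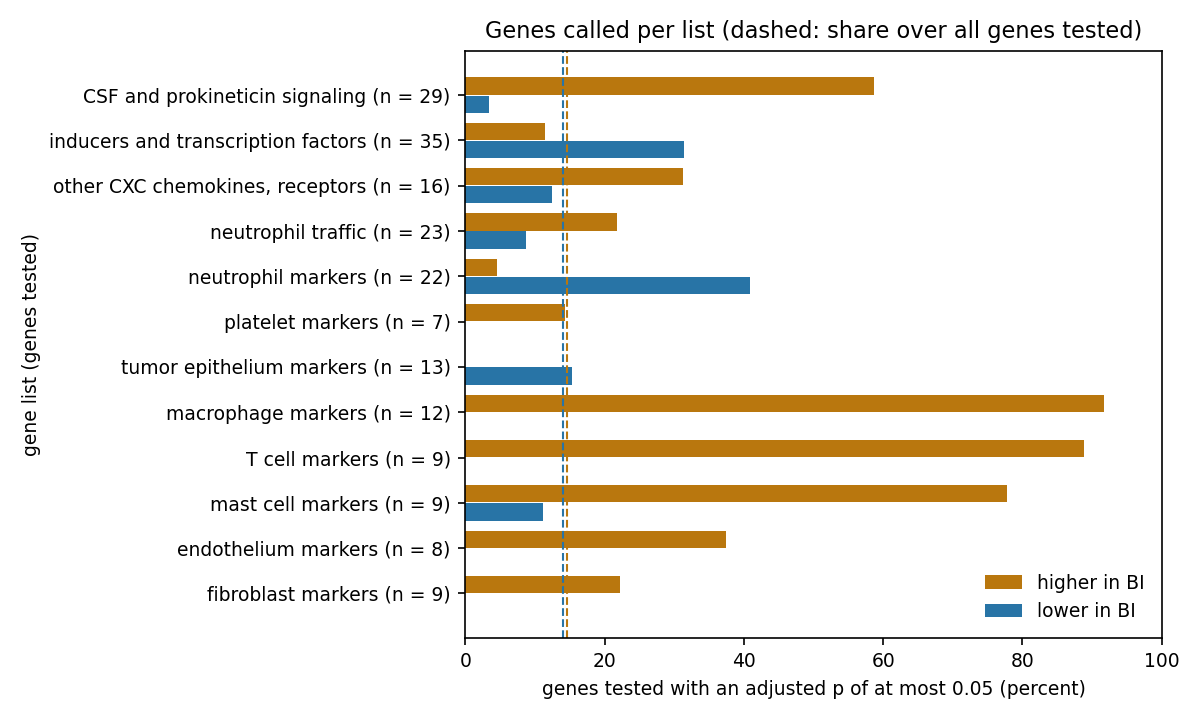
Share of the genes tested of each list with an adjusted p of at most 0.05 that were higher (brown) or lower (blue) in BI 853520-treated tumors, as bars from 0 to 100%. Dashed lines mark the shares over all genes tested, 14.6% higher and 14.1% lower; lower genes exceed higher genes in the neutrophil, tumor epithelium and inducer lists.

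Genes for signals and transcription factors that act in the induction of Csf3 and CXC chemokines were lower more often than higher. They include feedback inhibitors such as Tnfaip3, so the counts are not of inducers alone. Of 35 tested, 11 fell (31.4%) and 4 rose (11.4%), beside 14.1% and 14.6% of all genes tested. The median log2 fold change was -0.18. Fosl1, an AP-1 subunit, fell from 72.6 ± 5.04 to 41.2 ± 7.79 CPM, which is -0.82 on the log2 scale (SE 0.128, edgeR, adjusted p = 0.000763). Ets1, a transcription factor, and Tnfaip3, a target and feedback inhibitor of NF-kappaB, fell by 0.52 and 0.47 on the log2 scale (adjusted p = 0.000166 and 0.000585, edgeR). Tlr2, Tnfrsf1a and Tlr4, receptors for bacterial products and tumor necrosis factor, rose by log2 fold changes of 0.71, 0.27 and 0.28 (adjusted p = 0.000346, 0.0047 and 0.0259, edgeR). The fourth was Il17ra, a receptor chain for interleukin 17, at 0.21. Hif1a, the most abundant per length, was at 465 ± 36.9 and 411 ± 16.2 CPM (adjusted p = 0.0557, edgeR). Without vehicle replicate 2 or 3 the genes that rose numbered 2.

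Of the remaining CXC chemokines and their receptors, 16 of 17 were tested, with a median log2 fold change of 0.23. Of these 5 rose (31.25%) and 2 fell (12.5%), beside 14.6% and 14.1% of all genes tested. Those that fell were Cxcr1, which encodes the receptor most closely related to Cxcr2, and Ackr3, a scavenging receptor for Cxcl12. Cxcr1 ran from 0.687 to 1.79 CPM with vehicle and from 0.236 to 0.571 CPM with BI 853520, without overlap and with at most 40 counts (log2 fold change -1.59, SE 0.354, edgeR, adjusted p = 0.00638). Ackr3 fell from 15.5 ± 0.613 to 8.42 ± 0.860 CPM (log2 fold change -0.88, adjusted p = 0.000112, edgeR). Cxcl9, a ligand of the lymphocyte receptor CXCR3, rose from 179 ± 32.0 to 302 ± 51.6 CPM, and Cxcr3 and Cxcr6, receptors of lymphocytes, rose by log2 fold changes of 0.93 and 1.16 (adjusted p = 0.0031, 0.00148 and 0.000648, edgeR). The other chemokines that rose were Cxcl13 (3.05) and Cxcl16 (0.43). Without vehicle replicate 3 the genes that rose numbered 3.

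Of 23 genes that guide neutrophils and other leukocytes out of vessels, 5 rose (21.7%) and 2 fell (8.70%). Over all genes tested, 14.6% rose and 14.1% fell. The median log2 fold change of the 23 was 0.16. The integrin genes Itgal and Itgam and the selectin ligand gene Selplg, which several leukocyte types share, rose by log2 fold changes of 1.03, 0.53 and 0.80 (adjusted p = 0.000264, 0.00203 and 0.000213, edgeR). The other genes that rose were Alox5ap (0.55) and Itgb2 (0.29). Of the genes that fell, Bsg, the most abundant per length, fell by 0.37 on the log2 scale (adjusted p = 0.00327, edgeR).

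Markers of other leukocytes moved with treatment as well, in the direction opposite to Cxcr2. Of the genes tested, 11 of 12 macrophage (91.7%), 8 of 9 T cell (88.9%) and 7 of 9 mast cell markers (77.8%) rose. Over all genes tested, 14.6% rose and 14.1% fell. The 1 mast cell marker that fell (11.1%) was Hdc. Hdc is also in the neutrophil list and did not pass without vehicle replicate 2 or 3. The most abundant of each list were C1qa, Cd3g and Tpsab1, with log2 fold changes of 1.06, 1.08 and 3.32 (adjusted p = 6.63e-05, 0.00036 and 0.00976, edgeR). The summed level of the macrophage list ran from 2072 to 2656 CPM with vehicle and from 3845 to 4658 CPM with BI 853520. For endothelium and fibroblasts, 37.5% and 22.2% of the markers rose, beside 14.6% of all genes, and 0 fell. By number, those that rose were 3 of 8 (Cdh5, Kdr and Tie1) and 2 of 9 (Col1a2 and Thy1). Without vehicle replicate 3 these counts were 0 and 4, without vehicle replicate 1 they were 1 and 0, and over all tumors left out in turn they ranged from 0 to 6 and from 0 to 4. Their most abundant genes, Pecam1 and Col1a1, had log2 fold changes of 0.34 and 0.96 (adjusted p = 0.0532 and 0.0538, edgeR). What these cells contribute to the levels of the chemokine genes was not tested.

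The genes whose levels followed each other most closely apart from treatment were sought after subtracting the group means from log2 CPM, over 9 tumors. For Csf3 these were Atp6v0d2, 9430015G10Rik and Xrcc2 (Pearson's r 0.99, 0.98 and 0.95). For Cxcr2 they were Ccdc57, Sfswap and Spen (0.97, 0.94 and 0.94), and for Prok2 they were Mirt1, Wdr5b and Gm15545 (0.97, 0.93 and 0.91). With 9 tumors and so many genes such values are a description of these libraries.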

How the data were processed

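RNA of 9 tumors was measured, 3 vehicle-treated and 6 BI 853520-treated, replicates being numbered in the order of the labels. The authors aligned paired reads to mm9 with STAR, kept unique hits, and with QuasR 3.12.1 counted the reads starting within exons of RefSeq genes. The deposited table holds raw, unscaled counts of 18755 genes, each with a gene length that was used here for levels per kb. The library kit was stranded, and whether counting used strand is not given in the sources used here. Depth is given with the results, and limits from low counts cover counting error only.

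Symbols came from RefSeq (18700 of 18755 genes), mm9 positions from GENCODE, promoters from RefSeq. The fit used edgeR 4.0.16 in R 4.3.3 on the whole table (TMM, filterByExpr with minimum count 10 and total 15, quasi-likelihood F test without covariates, Benjamini-Hochberg adjustment), and was tested on simulated data. Log2 CPM used a prior count of 2.

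The 10 genes and 12 lists (CSF and prokineticin signaling, inducers, other CXC genes, neutrophil traffic, and markers of neutrophils, platelets, tumor epithelium, macrophages, T cells, mast cells, endothelium and fibroblasts) were chosen with earlier results of these data known. Of 210 list entries, Il17a, Ly6g, Gm5483 and Trac were not analysed here. Genes named outside the following rule were named after their values were seen. Named from each pathway list are the 3 genes with the smallest p in each direction among those called, from every list the most abundant gene per length and those at 3 counts or fewer in all tumors, and for Csf3, Cxcr2 and Prok2 the 3 genes most like them with a mean log2 CPM of at least 1. Alternatives were RLE factors, library size, other filters, DESeq2 1.42.0, limma-voom (limma 3.58.1), the cutoffs of the study, a prior count of 0.5 and leaving out each tumor. Some genes that this rule names are not reported here.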

Additional observations from a re-analysis of the deposited data

Results flagged for a closer look

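Among the 10 genes, each checked over the 6 BI 853520-treated tumors with Dixon's criterion, 2 had a tumor that stood apart from the others, where chance flags about 1 in 20. Cxcl2 was at 31.1 CPM in BI 853520 replicate 5, a gap of 0.631 of the group's whole range. Prok2 was at 2.68 CPM in the same tumor, a gap of 0.748 of the range.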

How the results depend on the processing

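Treated and vehicle-treated tumors were compared as separate groups, because the labels name no pairs between them. At the cutoffs of the study (unadjusted p of at most 0.05 and 1.5-fold) 1337 genes were higher and 498 lower in place of 2040 and 1973, and of the 103 pathway genes 16 were higher and 9 lower in place of 31 and 16. These cutoffs change the adjustment and the limit on size together, and the cause was not tested. Leaving out each tumor in turn gave between 1332 and 2026 higher and between 1172 and 1980 lower genes, with 1332 and 1172 without vehicle replicate 3 and 1289 lower genes without vehicle replicate 1, from fewer samples. The pathway genes then numbered between 21 and 33 higher and between 13 and 18 lower. Between 5 and 7 of the 10 genes passed as lower when a tumor was left out. Without the 2 tumors farthest from the median, the correlations with the neutrophil score reversed to -0.47 for Csf3r and -0.22 for Prok2, with 4 tumors and no call before or after. Under the other normalizations, filters and tests the log2 fold change stayed between -1.87 and -1.83 for Csf3 and between -2.37 and -2.18 for Prok2, and with tumors left out between -1.96 and -1.78 and between -2.59 and -1.97. That of Ppbp crossed 0. The study's cutoffs gave 6 of the 10 genes as lower. Csf2 had no value with a filter of 1 CPM in 3 tumors. Csf2 and Ppbp rest on few counts, at most 23 and 55, and the shares of counting error and of differences between tumors in their spread were not tested.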
